A study of Mus musculus with 12 samples.

Results

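The 30 genes described here encode chaperones, disulfide isomerases, stress sensors, degradation factors and translocon subunits of the endoplasmic reticulum (ER). They were taken by name from a list chosen for its function, with earlier results of these data known. Each matched 1 row among 48709 in the expression table (19181 with a value above 0 in any library). The RNA was from CD8 T cells taken from OT-I mice, whose T cells share 1 transgenic antigen receptor that recognises ovalbumin. The Naive group was taken from the spleen without stimulation. The 24h, 48h and 72h groups were collected at those times of culture, in which anti-CD3 and anti-CD28 stimulated the cells and IL-2 was added. Plate activation ended at 48 h, so for 72h cells the last day of culture was off the plates. Each of the 4 groups held 3 libraries, which the labels call biological replicates. No source used here gives the strain background or age of the mice or the number of animals behind a library, and the extraction notes speak of transferred OT-I cells without saying whether this applies to these libraries.

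Proteins bound for the cell surface or for secretion enter the ER through the Sec61 channel and fold there with the help of the Hsp70 chaperone BiP, of calnexin and calreticulin, and of disulfide isomerases. Proteins that fail to fold are moved back to the cytosol and destroyed, a route known as ER-associated degradation. When unfolded proteins accumulate, the sensors IRE1, ATF6 and PERK raise the output of these genes, which is the unfolded protein response, and XBP1 is the transcription factor that IRE1 activates by splicing its mRNA. Values per gene do not separate spliced from unspliced Xbp1. Activated CD8 T cells make cytokines, granzymes and receptors that pass through this compartment.

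The deposited unit is TPM, in which reads are divided by gene length and scaled to a fixed total per library. A gene was called higher or lower when limma gave an adjusted p under 0.05 and the absolute log2 fold change on the log2(TPM + 1) scale was at least 1. All 30 genes passed the filter for testing, among 12630 genes tested. Recovered as whole reads, the libraries held 14312854 to 19495722 reads each.

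Summed marker transcripts of other spleen cells were higher in the Naive libraries than later, although single plasma and dendritic cell markers were not. The 9 CD8 T cell markers summed to 10894 to 12016 TPM in Naive, 4888 to 5228 at 24h, 3915 to 3992 at 48h and 5543 to 5849.9 at 72h. The 11 myeloid markers in the table summed to 1022 to 2542 TPM in Naive, 17.8 to 24.6 at 24h, 8.81 to 11.6 at 48h and 4.82 to 5.41 at 72h, where 9 of them were listed at 0 in all libraries. The 9 B cell markers summed to 396 to 463 TPM in Naive, 84.3 to 85.9 at 24h, 32.5 to 39.5 at 48h and 25.8 to 31.8 at 72h. The 9 erythroid and platelet markers summed to 1530.2 to 2137 TPM in Naive and no more than 17.4 TPM in any later library. The 6 NK cell markers summed to 195 to 548 TPM in Naive against at most 12.8 TPM later, the 6 dendritic cell markers to 23.4 to 46.9 against at most 4.72, and the 4 CD4 T cell markers to 28.9 to 36.5 against at most 9.51. Plasma cells carry an enlarged ER, and their 6 markers summed to 184 to 395 TPM in Naive, 139 to 150.2 at 24h, 90.1 to 99.2 at 48h and 74.3 to 76.8 at 72h. Of these 6 at 24h against Naive, Jchain averaged 3.28 against 147 TPM and Mzb1 5.19 against 36.5 TPM, both called lower, and Tnfrsf17 was listed at 0 after activation. The others were not called at 24h. Txndc5 was at 88.5 against 45.8 TPM, Sdc1 at 4.27 against 2.44 TPM and Pou2af1 at 44.2 against 41.4 TPM. Txndc5 was thus the largest part of the 24h sum, which need not follow plasma cell content. The dendritic cell marker Zbtb46 was called higher at 48h, at 2.97 against 0.792 TPM in Naive. The part of these cells in the Naive values below was not tested, and in bulk RNA fewer cells of a type and less RNA per cell cannot be told apart.

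Many transcripts of the ER folding machinery were higher after activation than in Naive cells, while Dnajb9 and Herpud1 were lower. Together the 30 genes made up 3815 ± 179 TPM in Naive, 6023 ± 239 at 24h, 6603 ± 42.8 at 48h and 4668 ± 23 at 72h (mean ± SD, n = 3 libraries here and below). At 24h, 12 of the 30 genes were called higher than Naive and 3 lower, where 25.7% of all genes tested were higher and 21% lower. At 48h, 13 were higher and 1 lower than Naive, against 24.7% and 20.7% of all genes. At 72h, 6 were higher and 3 lower, against 24.5% and 19% of all genes. The share of the 30 genes called higher was thus above that of all genes at 24h and 48h and below it at 72h, and the share called lower was below that of all genes at each time. Canx, P4hb, Pdia3, Sdf2l1 and Atf6 were called higher at all 3 times, Dnajb9 was called lower at all 3, and 11 genes were called at none. The median log2 fold change across the 30 genes was 0.79, 0.73 and 0.53 at 24h, 48h and 72h, where that of all genes tested was 0.15, 0.15 and 0.21.

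These counts depend on how libraries are scaled. With median-of-ratios scaling the median of all genes at 24h vs Naive moved from 0.15 to −0.15. At 24h 7 of the 30 genes (23.3%) were then higher and 5 (16.7%) lower, where 18.6% of all genes were higher and 27.3% lower. At 48h 10 (33.3%) were higher and 3 lower, against 19.0% and 25.9% of all genes, and at 72h 3 were higher and 5 lower, against 16.8% and 25.3%. Quantile normalization gave 7 higher (23.3%) and 4 lower at 24h, against 23.5% and 21.7% of all genes, so the members' share of higher calls at 24h was not above the background there. It gave 12 and 3 at 48h, against 23.8% and 21.8%, and 3 and 4 at 72h, against 22.6% and 20.2%. The median of the 30 genes kept its sign in all 3 comparisons under both scalings, at 0.43, 0.43 and 0.18 with median-of-ratios scaling and 0.54, 0.46 and 0.33 with quantile normalization.

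**Figure D1:**
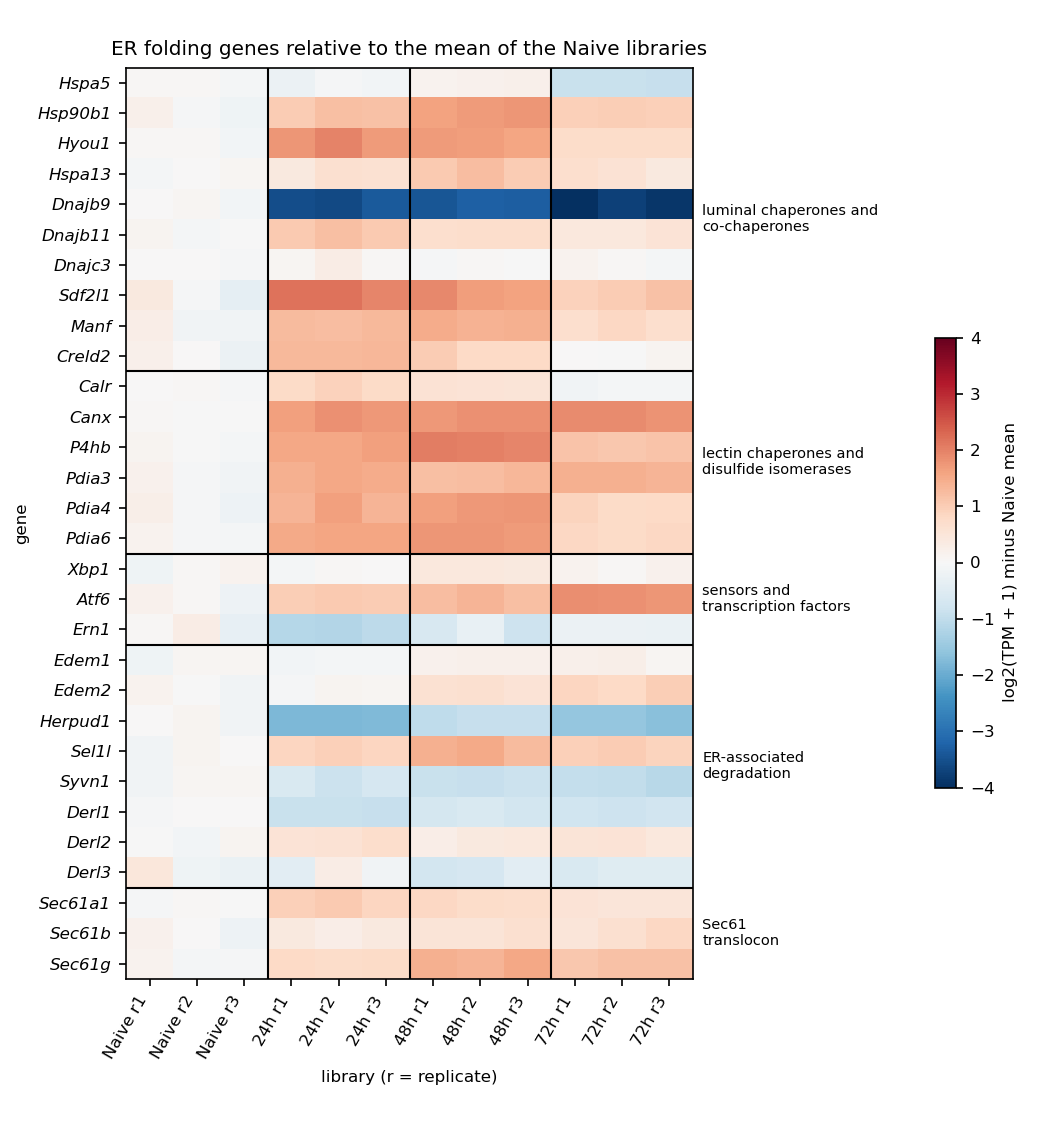
Each row is 1 of the 30 genes, grouped by role, and each column 1 of the 12 libraries. Colour gives log2(TPM + 1) minus the mean of the 3 Naive libraries, red higher and blue lower. Replicates are alike, most chaperone and isomerase rows are red at 24h and 48h and paler at 72h, and Dnajb9 and Herpud1 are blue in every activated library.

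Promoter sequences were read for the members to show which carry the classical ER stress response element, ERSE, to which NF-Y and ATF6 are known to bind. It was searched as CCAAT and CCACG with any 9 bases between them. RefSeq windows of 300 bases on GRCm38.p6, from 250 bases before to 50 bases after the start site, were matched for 24 of the 30 genes. Hspa13, Derl1, Hyou1, Sec61a1, Manf and Atf6 had no entry. Searched on both strands, ERSE stood in the windows of 9 of the 24 genes (37.5%), namely Hspa5, Hsp90b1, Dnajc3, Creld2, Calr, Canx, Pdia6, Syvn1 and Derl3, and in those of 37 of 27025 genes overall (0.137%). A second element, ERSE-II, was searched as ATTGG and CCACG with any 1 base between them. It stood in the windows of Dnajb11 and Herpud1 (8.33%) and in those of 12 genes overall (0.0444%). The shorter half-site CCACG, which is part of both, was present in 20 of the 24 genes (83.3%) and in 35.5% of all genes. The core TGACGTGG of the XBP1-bound element was in none of the 24 windows and in 0.714% of all genes.

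The windows below are shown to set BiP, the reference gene of the response, beside members called higher (Pdia6, Sdf2l1) and lower (Herpud1, Dnajb9), with the fixed letters of ERSE or ERSE-II in capitals. Hspa5 (chr2:34771840-34772139, plus strand) and Pdia6 (chr12:17266339-17266638, plus strand) hold ERSE, Herpud1 (chr8:94386179-94386478, plus strand) holds ERSE-II, and Sdf2l1 (chr16:17132334-17132633, minus strand) and Dnajb9 (chr12:44210019-44210318, minus strand) hold neither and so have no capitals.
Hspa5: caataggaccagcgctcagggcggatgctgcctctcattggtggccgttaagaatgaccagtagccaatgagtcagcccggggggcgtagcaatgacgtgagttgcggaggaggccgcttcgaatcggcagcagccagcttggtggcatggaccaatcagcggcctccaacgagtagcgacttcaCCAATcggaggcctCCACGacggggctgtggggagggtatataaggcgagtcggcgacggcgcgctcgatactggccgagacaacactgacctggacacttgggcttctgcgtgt
Pdia6: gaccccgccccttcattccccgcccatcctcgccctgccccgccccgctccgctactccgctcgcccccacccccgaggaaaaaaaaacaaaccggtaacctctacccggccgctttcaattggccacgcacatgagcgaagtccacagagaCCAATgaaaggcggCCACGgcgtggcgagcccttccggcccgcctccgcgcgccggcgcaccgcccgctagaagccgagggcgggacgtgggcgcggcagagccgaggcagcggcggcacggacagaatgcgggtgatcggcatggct
Herpud1: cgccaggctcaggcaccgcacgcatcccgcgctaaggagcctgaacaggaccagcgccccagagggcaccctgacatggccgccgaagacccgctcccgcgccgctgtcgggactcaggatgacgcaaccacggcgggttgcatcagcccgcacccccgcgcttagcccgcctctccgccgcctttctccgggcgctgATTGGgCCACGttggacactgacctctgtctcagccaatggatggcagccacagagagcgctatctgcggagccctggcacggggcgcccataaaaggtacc
Sdf2l1: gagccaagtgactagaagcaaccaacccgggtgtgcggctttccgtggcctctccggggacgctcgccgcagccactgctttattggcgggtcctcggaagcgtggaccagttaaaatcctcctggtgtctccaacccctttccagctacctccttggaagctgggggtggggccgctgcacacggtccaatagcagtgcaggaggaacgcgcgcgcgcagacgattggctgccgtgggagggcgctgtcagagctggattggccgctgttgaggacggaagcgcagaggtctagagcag
Dnajb9: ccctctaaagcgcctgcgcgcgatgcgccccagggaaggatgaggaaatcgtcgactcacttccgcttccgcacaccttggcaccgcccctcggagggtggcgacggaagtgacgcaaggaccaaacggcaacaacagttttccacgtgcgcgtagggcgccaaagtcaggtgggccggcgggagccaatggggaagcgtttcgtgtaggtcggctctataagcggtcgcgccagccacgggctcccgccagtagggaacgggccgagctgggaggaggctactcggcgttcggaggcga

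Genes with and without an element were among those called. Of the 9 genes with ERSE, 4 were called higher at 24h (Hsp90b1, Creld2, Canx and Pdia6), none lower, and 5 were not called. Of the 13 with neither element, 4 were higher at 24h, 2 lower and 7 not called. The pair with ERSE-II split at 24h, Dnajb11 being higher and Herpud1 lower. With either median-of-ratios scaling or quantile normalization the 24h calls of Hsp90b1, Creld2 and Dnajb11 were lost. Those of Canx, Pdia6 and Herpud1 held. At 48h, 3 of the 9 with ERSE were higher and none lower, against 6 of the 13 with neither element higher and 1 lower. At 72h, 1 of the 9 was higher and 1 lower, against 4 and 1 of the 13. Among all genes tested, 25.7%, 24.7% and 24.5% were higher at 24h, 48h and 72h, and 21%, 20.7% and 19% lower. Whether genes with an element differ from those without in their calls was not tested. A motif match is a description of the letters in the window and says nothing about whether a factor was bound.

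**Figure D2:**
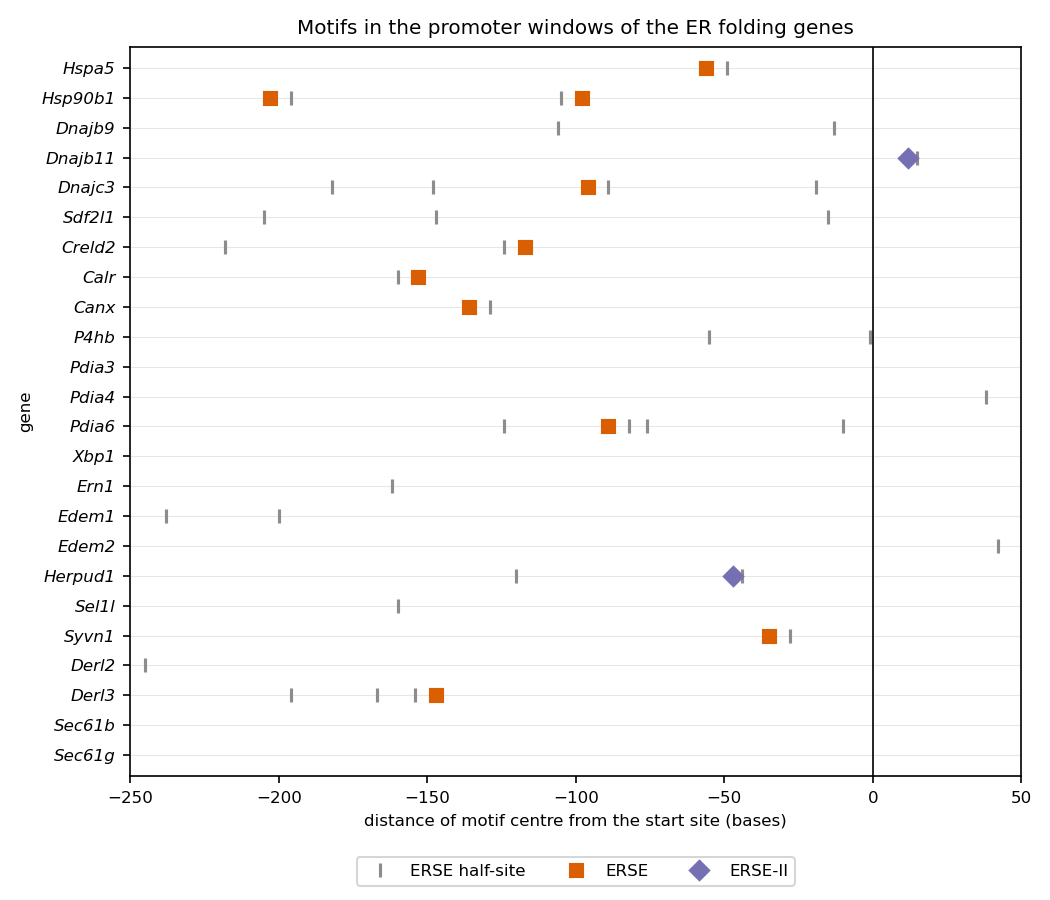
Positions of ERSE (squares), ERSE-II (diamonds) and the ERSE half-site (ticks) in the promoter windows of the 24 genes, as the distance of the motif centre from the start site in bases. The windows of 9 genes hold ERSE, with Hsp90b1 holding more than 1, and those of Pdia3, Xbp1, Sec61b and Sec61g hold none of the plotted motifs.

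Among the luminal chaperones, BiP itself was not called against Naive at any time. Hspa5 (ENSMUSG00000026864) encodes BiP, the Hsp70 chaperone of the ER and the usual readout of its stress response. It stood at 806, 805 and 743 TPM in the 3 Naive libraries, 664, 757 and 725 TPM at 24h, 855, 875 and 902 TPM at 48h and 425, 422 and 413 TPM at 72h. The 24h and Naive libraries overlapped, while all 72h libraries lay far below all others. Set against Naive, Hspa5 had a log2 fold change of −0.13 at 24h (SE 0.055, limma adjusted p = 0.0366), 0.16 at 48h (adjusted p = 0.0146) and −0.90 at 72h (adjusted p = 4.01e-09), all under the fold minimum. With median-of-ratios scaling the 48h value changed sign (−0.14) and the 72h value passed the minimum (−1.27).

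Another abundant chaperone of the ER lumen was called higher at 24h and 48h. Hsp90b1, which encodes GRP94, the Hsp90 of the ER, averaged 261 ± 34.5 TPM in Naive, 567 ± 39.6 at 24h, 841 ± 46.1 at 48h and 508 ± 10.1 at 72h. In log2 terms the difference from Naive was 1.12 at 24h and 1.69 at 48h. Hyou1, a nucleotide exchange factor for BiP, averaged 39.5 ± 2.33 TPM in Naive, 143 ± 15.5 at 24h and 127 ± 6.48 at 48h, a rise of 1.82 and 1.66 on the log2 scale. Levels of BiP and GRP94 transcripts, which are comparable per length in TPM, thus changed order, Hsp90b1 at 508 TPM and Hspa5 at 419.7 TPM at 72h, against 261 and 784 TPM in Naive. Hspa13, a small Hsp70-like ATPase of the ER, was called higher at 48h alone (1.10), and that call was lost with median-of-ratios scaling (0.82) and a pseudocount of 5 (0.85).

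J-domain co-chaperones, which deliver substrates to BiP, went in different directions. Dnajb9 (ENSMUSG00000014905) encodes ERdj4, which assists degradation and represses IRE1. Its values were 197, 206 and 180.1 TPM in Naive, 15.7, 15.1 and 18.2 TPM at 24h, 17.3, 19.3 and 18.8 TPM at 48h and 10.5, 13.6 and 12.2 TPM at 72h. No activated library came near the Naive range. Set against Naive, Dnajb9 fell at each time, with log2 fold changes of −3.50, −3.33 and −3.90 (SE 0.1 each, adjusted p = 2.23e-12, 4.16e-12 and 1.26e-12). It was the largest change among the 30 genes in each comparison with Naive. Dnajb11, which encodes ERdj3, averaged 143 ± 9.36 TPM at 24h against 65.9 ± 4.99 in Naive (1.10, called higher), and Dnajc3, which encodes the co-chaperone p58IPK, was between 62.2 and 80.0 TPM in all 12 libraries with no call in any comparison.

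Transcripts of smaller stress-inducible proteins of the lumen were higher at 24h. Sdf2l1, a partner of ERdj3, averaged 44.3 ± 12 TPM in Naive, 189 ± 14.7 at 24h, 148 ± 17.8 at 48h and 89.7 ± 8.23 at 72h, and its log2 fold change of 2.10 at 24h was the largest rise among the 30 genes. Its values in the 3 Naive libraries were 57.4, 41.7 and 33.9 TPM. The call of Sdf2l1 at 72h (1.03) was lost with median-of-ratios scaling (0.67), quantile normalization (0.73), a pseudocount of 5 (0.97), and without Naive replicate 3 (0.86) or 72h replicate 3 (0.96). Manf, a secreted protein held in the ER by BiP, was higher by 1.26 at 24h and 1.44 at 48h, and Creld2, a protein induced with the unfolded protein response, by 1.31 at 24h. The 24h calls of Hsp90b1, Dnajb11, Manf and Creld2 were lost with median-of-ratios scaling (0.76, 0.74, 0.90 and 0.95) and with quantile normalization (0.81, 0.71, 0.90 and 0.92).

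**Figure D3:**
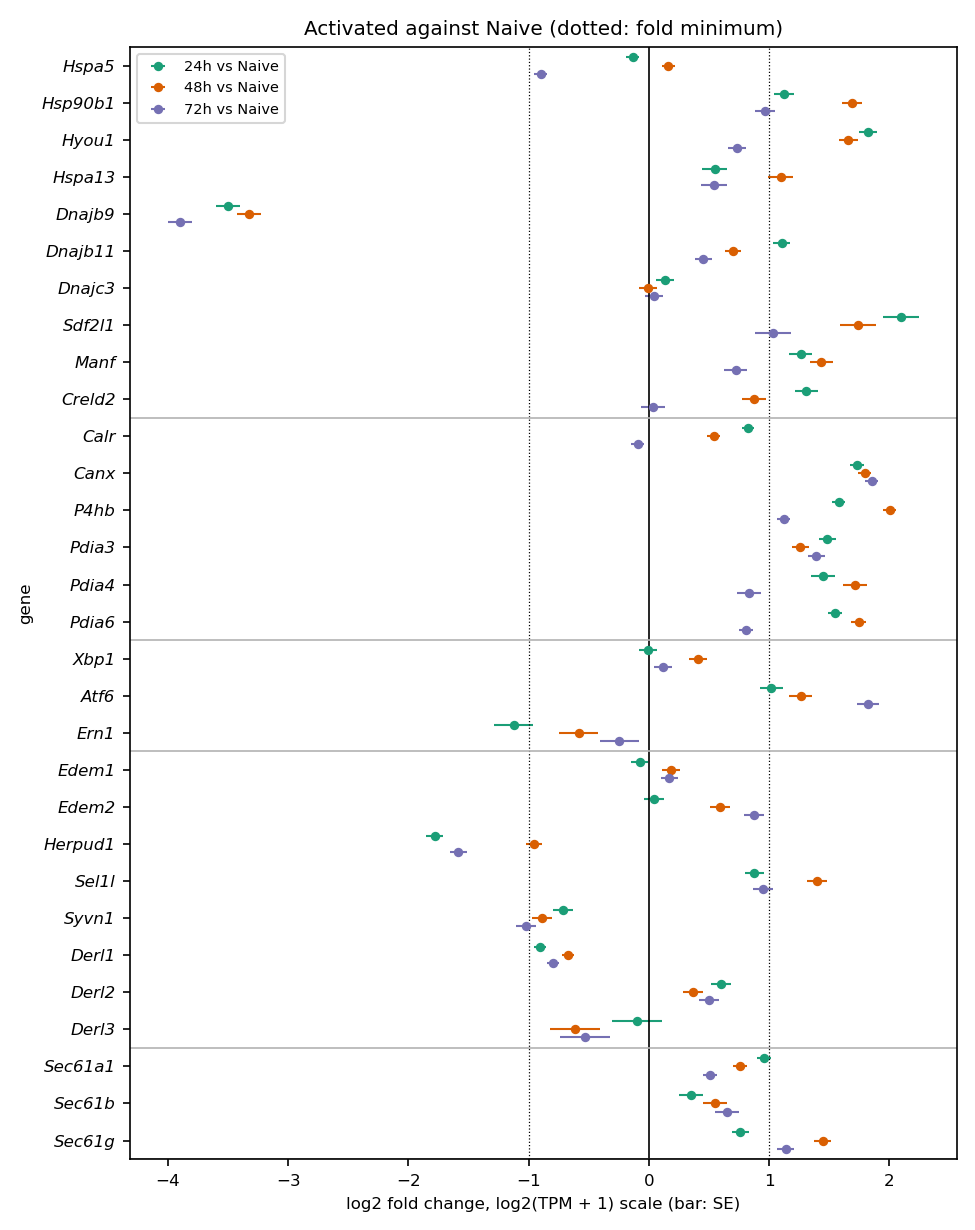
Log2 fold changes of the 30 genes against Naive on the log2(TPM + 1) scale, at 24h (green), 48h (orange) and 72h (purple), with bars for the SE and dotted lines at the fold minimum. Dnajb9 lies between −3.90 and −3.33, Canx between 1.73 and 1.85, and most chaperones sit closer to 0 at 72h than at 48h.

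The disulfide isomerases and the membrane lectin calnexin were mostly higher. Of the 6 lectin chaperones and isomerases, 5 were called higher than Naive at 24h, 5 at 48h and 3 at 72h, and none lower. The shares called higher were 83.3%, 83.3% and 50%, where 25.7%, 24.7% and 24.5% of all genes were higher. Among all genes 21%, 20.7% and 19% were lower. P4hb (ENSMUSG00000025130) encodes protein disulfide isomerase, which makes and rearranges disulfide bonds. It was at 232, 214 and 204 TPM in Naive, 638, 633 and 674 TPM at 24h, 889, 874 and 847 TPM at 48h and 480.1, 462 and 474 TPM at 72h. Each activated group lay above the Naive libraries and apart from the other activated groups. P4hb had log2 fold changes of 1.58, 2.00 and 1.12 against Naive in time order (SE 0.053, adjusted p = 9.21e-12, 1.48e-12 and 3.27e-10), and the last was 0.76 under median-of-ratios scaling and 0.82 under quantile normalization, which are no calls. Pdia4 and Pdia6, further isomerases, were higher by 1.45 and 1.55 at 24h and by 1.72 and 1.74 at 48h.

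Canx and Pdia3 stayed called at 72h, with no call and no adjusted p under 0.05 at 72h vs 48h. Canx (ENSMUSG00000020368), the membrane-bound lectin that holds glycoproteins while they fold, was at 134, 129 and 128 TPM in Naive, 408, 463 and 439.5 TPM at 24h, 438, 464 and 465 TPM at 48h and 483, 485 and 456 TPM at 72h. The 3 activated groups overlapped one another and stood well above Naive, with log2 fold changes of 1.73, 1.79 and 1.85 (SE 0.054, adjusted p = 5.25e-12, 4.54e-12 and 3.8e-12). Pdia3, the isomerase that works with calnexin and also in the MHC class I loading complex, averaged 238 ± 27.2 TPM in Naive, 663 ± 27.8 at 24h, 568 ± 22.4 at 48h and 623 ± 13.6 at 72h. Its call at 48h (1.26) was lost with median-of-ratios scaling (0.95) and quantile normalization (0.99). Calr, the soluble counterpart of calnexin, peaked at 893 ± 55 TPM at 24h against 503 ± 19.8 in Naive, a difference of 0.83 under the fold minimum, and was at 471 ± 9.64 TPM at 72h.

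**Figure D4:**
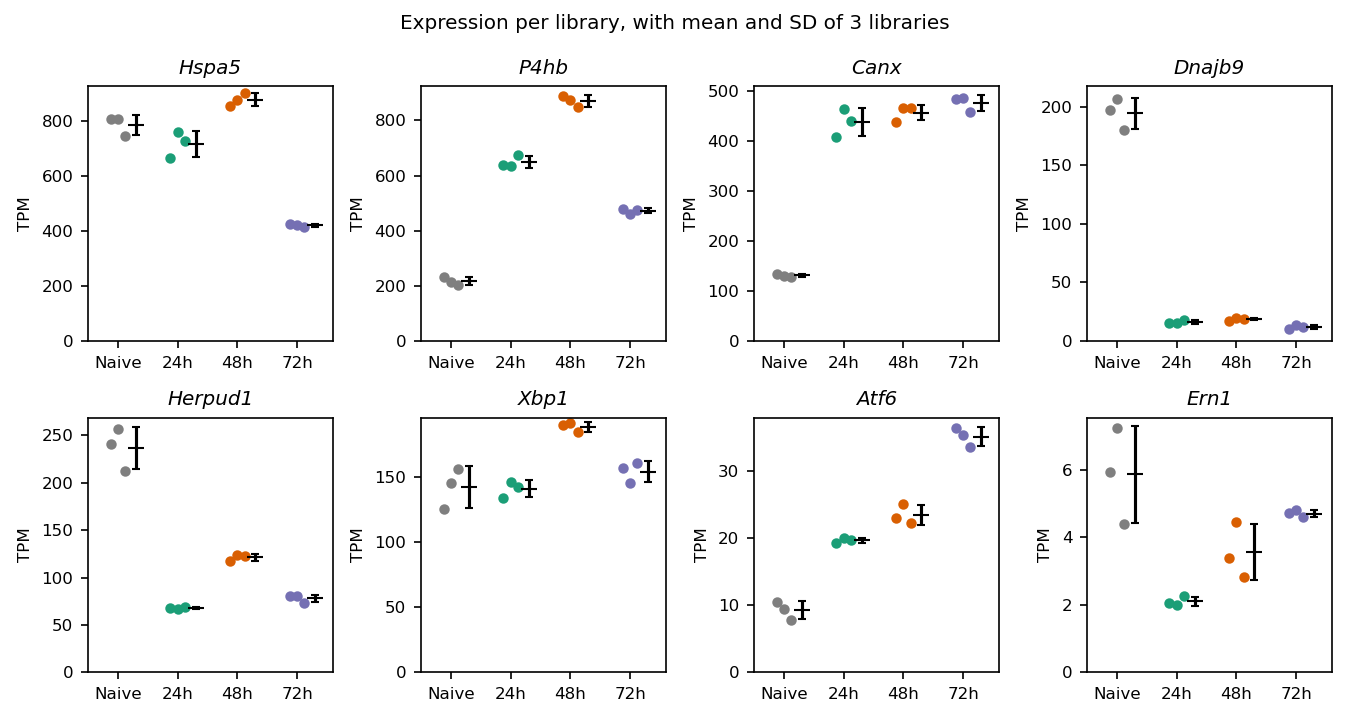
TPM of 8 genes in each library (points, 3 per group) with the mean and SD of each group beside them, on axes that start at 0. Hspa5 and P4hb drop between 48h and 72h, Canx stays level, Dnajb9 and Herpud1 are low after activation, and Atf6 is higher at each later time.

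The 3 sensors and transcription factors each had a pattern of their own. Xbp1 (ENSMUSG00000020484) was at 125, 146 and 157 TPM in Naive, 134, 147 and 143 TPM at 24h, 190.2, 192 and 185 TPM at 48h and 157, 146 and 161 TPM at 72h. The 48h libraries were above all others, and the remaining groups overlapped. Its log2 fold change of 0.41 at 48h (SE 0.075, adjusted p = 0.000206) lay under the fold minimum. Atf6 (ENSMUSG00000026663), the sensor that is cut in the Golgi to release a transcription factor, was at 10.5, 9.48 and 7.82 TPM in Naive, 19.3, 20 and 19.7 TPM at 24h, 23.1, 25.2 and 22.3 TPM at 48h and 36.4, 35.4 and 33.6 TPM at 72h. No groups overlapped, and it rose by 1.02, 1.26 and 1.82 against Naive (SE 0.095, adjusted p = 3.13e-07, 3.49e-08 and 9e-10). The 24h call was lost with median-of-ratios scaling (0.68), quantile normalization (0.91), a pseudocount of 5 (0.79) and without Naive replicate 3 (0.91), and the 48h call with median-of-ratios scaling (0.98).

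Ern1 (ENSMUSG00000020715), which encodes IRE1, the kinase and nuclease that splices Xbp1, was the lowest of the sensors. Its values were 5.92, 7.24 and 4.4 TPM in Naive, 2.06, 2.01 and 2.25 TPM at 24h, 3.37, 4.45 and 2.84 TPM at 48h and 4.71, 4.8 and 4.59 TPM at 72h. All 24h libraries lay below all Naive libraries, a log2 fold change of −1.12 (SE 0.16, adjusted p = 2.31e-05), while the 48h and 72h libraries overlapped Naive. Between 105 and 109 recovered reads lay behind each 24h value, a number that may be too low by an integer factor. The call was lost with a pseudocount of 5 (−0.60), quantile normalization (−0.91) and without Naive replicate 2 (−0.98). Ern1 did not pass the filter of 5 TPM and was not tested under it.

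Degradation genes were mixed. At 24h none of the 8 was called higher and 1, Herpud1, was called lower (12.5%), where 25.7% of all genes were higher and 21% lower. Herpud1 (ENSMUSG00000031770) encodes a membrane protein that helps assemble the degradation complex. It stood at 240.4, 257 and 212 TPM in Naive, 67.7, 66.7 and 69.2 TPM at 24h, 117, 124 and 123 TPM at 48h and 80.2, 80.5 and 73.5 TPM at 72h. Every activated library was below every Naive library, and the 48h libraries were above those of 24h and 72h. Herpud1 had log2 fold changes of −1.78, −0.95 and −1.58 at 24h, 48h and 72h (SE 0.069, adjusted p = 3.54e-11, 2.3e-08 and 1.44e-10). The 48h value lay just under the fold minimum and passed it with median-of-ratios scaling (−1.26), quantile normalization (−1.25) and without Naive replicate 3 (−1.03).

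Transcripts of the ubiquitin ligase HRD1 and of its adaptor differed from Naive in opposite directions. Sel1l (ENSMUSG00000020964), the adaptor, was at 17.7, 21.3 and 19.5 TPM in Naive, 35.9, 38.2 and 35.7 TPM at 24h, 53.6, 56.9 and 48.5 TPM at 48h and 38.7, 40 and 36.8 TPM at 72h. The Naive libraries were the lowest and the 48h libraries the highest, with log2 fold changes of 0.88, 1.40 and 0.95, of which that at 48h was called (SE 0.081, adjusted p = 2.48e-09). Syvn1, which encodes HRD1 itself, averaged 52.1 ± 4.64 TPM in Naive, 31.3 ± 2.75 at 24h, 27.6 ± 0.419 at 48h and 25.1 ± 1.42 at 72h. Syvn1 had log2 fold changes of −0.72 at 24h and −0.89 at 48h, and −1.02 at 72h, which was called lower at the edge of the fold minimum. That call was lost with a pseudocount of 5 (−0.92) and without Naive replicate 2 (−0.99), Naive replicate 3 (−0.98) or 72h replicate 3 (−0.98). In the other direction, Syvn1 became a call at 24h and 48h with median-of-ratios scaling (−1.07 and −1.19) and with quantile normalization (−1.03 and −1.16).

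The remaining degradation genes were not called at any time. Derl1, the most abundant of the 3 derlin transcripts, averaged 100.4 ± 1.17 TPM at 24h against 189 ± 4.62 in Naive, a difference of −0.91 that became a call with median-of-ratios scaling (−1.27) and quantile normalization (−1.32). Derl2 averaged 19 ± 1.18 TPM at 24h against 12.3 ± 0.882 in Naive. Derl3, a derlin of secretory cells, was at 5.90, 3.43 and 3.18 TPM in Naive and between 2.02 and 5.14 TPM in the activated libraries, on 16 to 51 recovered reads per library, with the same reservation. Edem1, a mannosidase-like protein that selects glycoproteins for degradation, averaged 147 ± 9.13 TPM at 72h against 131 ± 13.6 in Naive, and its relative Edem2 54.2 ± 3.41 TPM at 72h against 29.1 ± 2.94 in Naive.

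Sec61 subunits, which form the channel into the ER, were higher in every activated library than in every Naive library, although the Sec61b difference at 24h changed sign with median-of-ratios scaling (−0.012) and quantile normalization (−0.057). Of the 3, Sec61g at 48h and 72h passed the fold minimum. Sec61a1 (ENSMUSG00000030082), the pore subunit, was at 78.3, 84.6 and 80.7 TPM in Naive, 159, 169 and 149 TPM at 24h, 146, 136 and 133 TPM at 48h and 119, 114 and 115 TPM at 72h. It was highest at 24h, with a log2 fold change of 0.96 (SE 0.06, adjusted p = 5.07e-09), under the fold minimum. Sec61g (ENSMUSG00000078974), the gamma subunit, was at 33.4, 28.9 and 29.3 TPM in Naive, 53.8, 51.1 and 52.4 TPM at 24h, 82.7, 80.5 and 91.6 TPM at 48h and 65.6, 70.1 and 69.3 TPM at 72h. It was highest at 48h, where it rose by 1.45 (adjusted p = 4.79e-10), and its rise of 1.14 at 72h was no call with median-of-ratios scaling (0.78) or quantile normalization (0.85). Sec61b, the beta subunit, averaged 144 ± 17 TPM at 72h against 91.6 ± 12.5 in Naive.

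Differences between 48h and 24h were small. At 48h vs 24h none of the 30 genes was called by limma with the fold minimum, where 4.95% of all genes were higher and 3.07% lower. Of the 30, 23 had an unadjusted p under 0.05. That measure was not counted over all genes, so the 23 cannot be set against a background. By adjusted p alone, 15 were higher and 6 lower, against 22.1% and 30% of all genes tested. The 6 were Dnajb11, Creld2, Calr, Pdia3, Derl2 and Sec61a1, and their number was 3 with median-of-ratios scaling and 3 without 48h replicate 2. Herpud1 showed the largest difference, 121 ± 3.57 TPM at 48h against 67.9 ± 1.24 at 24h (0.83, SE 0.069, adjusted p = 9.99e-07). Hsp90b1 (0.57), P4hb (0.42), Xbp1 (0.42) and Hspa5 (0.30) were also higher at 48h by adjusted p alone.

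Most of the chaperones were lower at 72h, a day off the plates, than at 48h. At 72h vs 48h, 1 gene was called with the fold minimum, Hspa5, where 2.81% of all genes were higher and 3.22% lower. It stood at 419.7 ± 6.3 TPM at 72h against 877 ± 23.4 at 48h, a log2 fold change of −1.06 (SE 0.055, adjusted p = 2.06e-08). By adjusted p alone 18 of the 30 genes (60%) were lower and 2 higher, against 19% and 23.5% of all genes tested. The 18 became 20 under median-of-ratios scaling and 19 under quantile normalization, where 22.9% and 20.5% of all genes were lower, and were 18 or 19 with any 1 library left out. They held 9 of the 10 luminal chaperones and co-chaperones, all but Dnajc3, and 4 of the 6 lectin chaperones and isomerases, all but Canx and Pdia3. Hyou1 (−0.93), Pdia6 (−0.93), P4hb (−0.88), Pdia4 (−0.88) and Creld2 (−0.84) had the largest differences after Hspa5. Atf6 (0.56) and Edem2 (0.28) were the 2 that were higher at 72h, a count that was 1 with median-of-ratios scaling, with quantile normalization, and without 48h replicate 3 or 72h replicate 3. In this step the 6 plasma cell markers, Txndc5 among them, summed to 74.3 to 76.8 TPM at 72h against 90.1 to 99.2 at 48h. Of these, Sdc1 (−1.33) and Pou2af1 (−1.09) were called lower. The CD8 T cell markers summed to 5543 to 5849.9 TPM at 72h against 3915 to 3992 at 48h. The myeloid markers summed to 4.82 to 5.41 TPM at 72h against 8.81 to 11.6 at 48h, and the part of any of these in the differences was not tested.

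**Figure D5:**
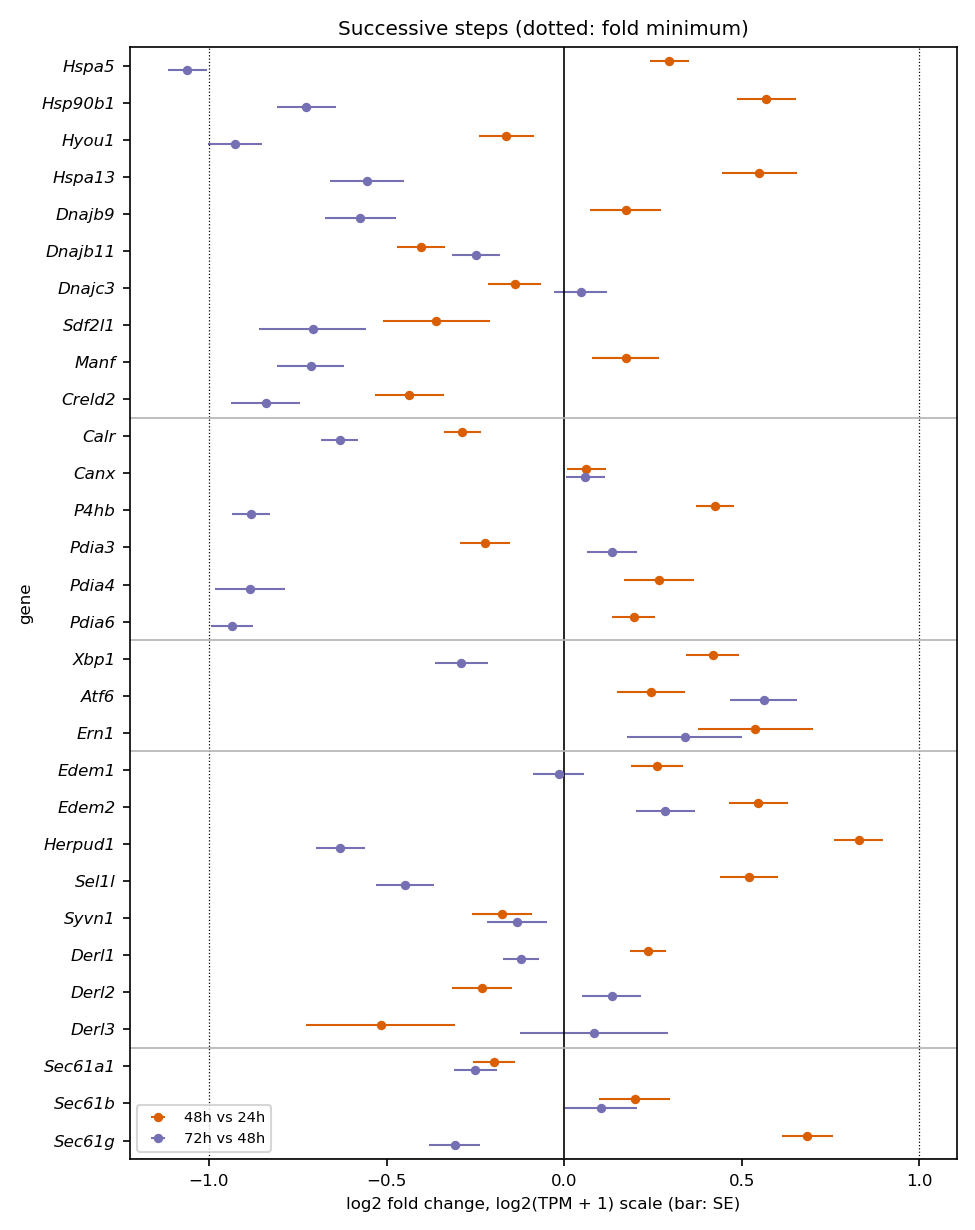
Log2 fold changes of the 30 genes in the successive steps, 48h vs 24h (orange) and 72h vs 48h (purple), with bars for the SE and dotted lines at the fold minimum. In the later step 9 of the 10 luminal chaperones and co-chaperones lie left of 0 by more than their SE, and Hspa5 lies beyond the minimum.

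Genes of the PERK arm, the branch that slows translation, were counted from a separate list of 10. At 24h, 3 were called higher than Naive (30%) and 4 lower (40%), where 25.7% of all genes were higher and 21% lower. At 48h and at 72h, 3 were higher and 3 lower (30% each way). Among all genes 24.7% were higher and 20.7% lower at 48h, and 24.5% and 19% at 72h. The median log2 fold change of the list at 24h was −0.45, with −0.81 under median-of-ratios scaling and −0.77 under quantile normalization. At 48h it was 0.19, and −0.11 with median-of-ratios scaling, and at 72h 0.13 and −0.23. No direction is thus given for the list at 48h and 72h. Eif2ak3, which encodes PERK, was at 12.2 ± 1.07 TPM at 24h against 78 ± 20.4 in Naive (−2.55). Ddit3, which encodes the transcription factor CHOP, was at 81.1 ± 1.72 TPM in Naive, 9.5 ± 0.74 at 24h, 33.8 ± 0.688 at 48h and 15.9 ± 1.51 at 72h. It was thus lower than Naive at every time, called higher at 48h vs 24h (1.73) and lower at 72h vs 48h (−1.05). Ppp1r15a, a phosphatase subunit that restores translation, had a log2 fold change of −4.57 at 72h vs Naive, whereas Chac1, a glutathione-degrading enzyme, was higher by 3.16 at 48h, and Trib3, a pseudokinase induced downstream of ATF4, by 4.28.

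Among oxidative folding genes outside the 30, the largest change was in an oxidase. Of 14 such genes, 4 were called higher and 2 lower at 24h, 7 and 2 at 48h, and 6 and 1 at 72h, all against Naive. The shares called higher were 28.6%, 50% and 42.9%, where 25.7%, 24.7% and 24.5% of all genes were higher. Their median log2 fold change at 24h was 0.545, with 0.19 under median-of-ratios scaling and 0.20 under quantile normalization. Ero1l, now named Ero1a, encodes the oxidase that recharges protein disulfide isomerase. It averaged 26 ± 1.58 TPM in Naive, 148 ± 28.9 at 24h, 1018 ± 36.1 at 48h and 507 ± 25.1 at 72h, and its log2 fold change reached 5.24 at 48h (SE 0.11, adjusted p = 3.03e-13). Its paralog Ero1lb, now Ero1b, was called lower at each time and averaged 8.68 ± 0.939 TPM at 24h against 28 ± 2.91 in Naive (−1.58). Prdx4, an ER peroxidase, was higher by 2.97 at 72h, and Pdia5, another isomerase, by 1.40 at 48h.

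Further chaperones, degradation genes and regulators were counted in the same way. Of 14 further ER chaperones and prolyl isomerases tested, 3 were called higher than Naive at 24h, 4 at 48h and 5 at 72h (21.4%, 28.6% and 35.7%, where 25.7%, 24.7% and 24.5% of all genes were higher), and none lower. Their median log2 fold change at 24h was 0.14, and −0.21 with median-of-ratios scaling. Fkbp11 (2.00), Cnpy2 (1.53) and Fkbp2 (1.38) were among them at 48h, as was Dnajc10, a J-domain reductase (1.59). Of 21 further degradation genes, 3 were higher (14.3%) and 1 lower at 24h, and 2 (9.52%) and 1 at both later times, shares below those of all genes. Their median was 0.12 at 24h and −0.24 with either other scaling. Vcp, the ATPase that pulls substrates out of the membrane, was at 559 ± 24 TPM at 24h against 149 ± 1.88 in Naive (1.90), its cofactor gene Nploc4 was higher by 1.21 and Get4 by 1.15, while Herpud2, the paralog of Herpud1, was lower (log2 fold change −1.31). Of 12 further regulators of ER stress tested, 3 were higher at 24h, 1 at 48h and 2 at 72h, with 1 lower at 72h (25.0%, 8.33% and 16.7% higher), and their median of 0.19 at 24h was −0.12 with median-of-ratios scaling. Mbtps2, a protease that releases ATF6, was higher by 1.30 at 48h, Rtcb, the ligase that joins spliced Xbp1, by 1.22 at 24h, and Bak1, a cell death protein that also acts at the ER, by 1.38.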

How the data were processed

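RNA from 12 libraries of OT-I CD8 T cells was measured, 3 in each of the 4 groups. TPM values were deposited by the authors, scaled by gene length and library total, and each library summed to 1000000. Per the submitters' processing notes, FastQC 0.11.9, cutadapt 2.9, STAR 2.7.7a and edgeR 3.36.0 and the GRCm39 build were used. Which tool counted reads, whether strand was used and how reads shared by several genes were handled is not given in the sources used here. Whole reads were recovered from the TPM values within a tolerance of 0.001 for all 19181 genes with a value. For some genes they may be too low by an integer factor, and they served to describe depth, per library and for Ern1 and Derl3.

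Values were taken as log2(TPM + 1), and testing was limited to the 12630 genes that reached 1 TPM in 3 or more libraries. limma 3.58.1 (R 4.3.3) fitted the 4 group means per gene, with variances moderated along an intensity trend. Of the 5 comparisons, 3 set a later time against Naive and the others are 48h vs 24h and 72h vs 48h. The p-values were 2-sided and adjusted by Benjamini-Hochberg over all genes tested in a comparison. The procedure was tested on simulated data. Only a small part of the genes was changed in them, without a shift in library composition, so that test does not bear on the choice of scaling. Python 3.11.15 with pandas 2.3.3, numpy 2.4.6 and matplotlib 3.10.9 made the figures and summaries.

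The 30 members, the other lists and the tests were chosen with earlier results of these data known. Values in every library were given for Hspa5, Xbp1 and Dnajb9, for the gene of largest change in each role at 24h and at 48h vs Naive, and for any gene called in a successive step. Of each other list the called genes of largest change, up to 4, whose higher group averaged 5 TPM or more were named. Eif2ak3, and the detail given on Sdf2l1, were chosen after their values were seen. Calls by adjusted p alone in the successive steps were added after seeing that few genes passed the fold minimum there. The rows of Rtraf, Selenok and Itgam, which the lists also named, were not analysed here. Single choices were then varied, namely the pseudocount (0.1 or 5), the filter (none or 5 TPM), the scaling (median-of-ratios or quantile normalization), a replicate block, a fit on the compared groups, no intensity trend, no fold minimum, and each library left out.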

Additional observations from a re-analysis of the deposited data

How the results depend on the processing

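Of the calls on the 30 genes, 9 of 15 at 24h vs Naive, 11 of 14 at 48h, 5 of 9 at 72h and the 1 at 72h vs 48h held under every alternative other than the fold minimum. The shares of all genes under each scaling stand beside the member counts above, and the members' share of higher calls at 24h (23.3%) did not exceed that of all genes (23.5%) with quantile normalization. With median-of-ratios scaling, 7 members were higher and 5 lower at 24h, and 3 were lower at 48h. At 72h, 3 were higher and 5 lower. By adjusted p alone 3 were then lower at 48h vs 24h and 1 higher at 72h vs 48h, against 25.9% and 19.6% of all genes. With quantile normalization 7 were higher at 24h, 3 lower at 48h and 3 higher at 72h. By adjusted p alone 1 was then higher at 72h vs 48h, against 21.1% of all genes.

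With no fold minimum, 19 members were higher and 6 lower at 24h, 23 and 6 at 48h, 19 and 6 at 72h, 15 and 6 at 48h vs 24h, and 2 and 18 at 72h vs 48h. Over all genes that setting gave 5796 and 4623 at 24h, 5830 and 4636 at 48h, 6000 and 4398 at 72h, 2786 and 3789 at 48h vs 24h, and 2964 and 2402 at 72h vs 48h. A pseudocount of 5 lowered the counts of lower genes to 1641, 1636 and 1483 at the 3 times and gave 298 higher and 150 lower at 48h vs 24h and 147 and 171 at 72h vs 48h, while a pseudocount of 0.1 gave 700 lower at 48h vs 24h and 584 higher and 663 lower at 72h vs 48h. With 1 library left out, members lower at 48h vs Naive numbered 1 to 2 (2 without Naive replicate 3), those lower by adjusted p alone at 48h vs 24h 3 to 9, and those higher at 72h vs 48h 1 to 3.

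Several differences that were not called in their comparison changed sign. With median-of-ratios scaling they were Dnajc3 (−0.23), Edem2 (−0.31) and Sec61b (−0.012) at 24h, Hspa5 (−0.14) and Edem1 (−0.12) at 48h, Dnajc3 (−0.32), Creld2 (−0.33), Xbp1 (−0.25) and Edem1 (−0.20) at 72h, and Dnajc3 (−0.015) and Canx (−0.0031) at 72h vs 48h. With quantile normalization they were Dnajc3 (−0.24), Edem2 (−0.23), Derl3 (0.19) and Sec61b (−0.057) at 24h, Edem1 (−0.11) at 48h, and Dnajc3 (−0.28), Creld2 (−0.29), Xbp1 (−0.21) and Edem1 (−0.15) at 72h. With 1 library left out, the range was −0.29 to 0.13 for Derl3, −0.098 to 0.062 for Xbp1 and −0.019 to 0.12 for Edem2 at 24h, −0.026 to 0.0092 for Dnajc3 at 48h, −0.0090 to 0.10 for Dnajc3 and −0.080 to 0.13 for Creld2 at 72h, and −0.0041 to 0.10 for Dnajc3 and −0.053 to 0.034 for Edem1 at 72h vs 48h. The cause of these shifts was not tested.

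The groups share replicate numbers without a stated pairing. Deviations of same-numbered libraries correlated between −0.0522 and 0.0894 over 18 pairs, so the numbers were not taken to pair the samples, and with a replicate block 12 members were higher and 3 lower at 24h, 13 and 1 at 48h and 6 and 3 at 72h, as without it. Derl3 had 16 to 51 recovered reads a library, possibly too low by an integer factor, so counting error limits its values.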

Other observations

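Genes that modify proteins in the ER or carry them into and out of it were counted beside the 25.7%, 24.7% and 24.5% of all genes called higher than Naive at 24h, 48h and 72h. Of 20 N-glycosylation and glycoprotein quality control genes tested, 9 were called higher than Naive at 24h, 10 at 48h and 10 at 72h (45.0%, 50% and 50%), and none lower. Mogs, the glucosidase that trims the new glycan first, was at 45 ± 1.42 TPM in Naive, 289 ± 21.5 at 24h, 123 ± 10.7 at 48h and 80.8 ± 7.98 at 72h, and was called lower at 48h vs 24h (−1.23). Rpn1, a subunit of the transferase that attaches the glycan, was at 208 ± 18.3 TPM at 24h against 53.2 ± 1.44 in Naive (1.94). Alg8 (2.51) and Dpagt1 (1.96), enzymes that build the lipid-linked precursor, were higher at 24h too. The median log2 fold change of these genes was 0.93 at 24h, 0.57 after median-of-ratios scaling and 0.62 after quantile normalization.

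Of 22 targeting and translocation genes outside Sec61, 7 were called higher than Naive at 24h, 8 at 48h and 7 at 72h, with none, 1 and 1 lower. These shares of 31.8%, 36.4% and 31.8% lie nearer the background, and the median log2 fold change of 0.62 at 24h and 0.42 at 72h was 0.26 and 0.059 with median-of-ratios scaling. Spcs3, a subunit of signal peptidase, was at 279 ± 8.33 TPM at 48h against 52.7 ± 5.67 in Naive (2.39), and Spcs2 was higher by 1.53. The signal recognition particle genes Srp72 (1.41) and Srp54a (3.13) were higher at 48h, the second with near-identical copies in the mouse genome among which reads may be split. Of 24 genes of vesicle traffic between ER and Golgi, 7, 10 and 9 were called higher at 24h, 48h and 72h (29.2%, 41.7% and 37.5%), and none lower. Their median at 24h was 0.60, and 0.30 with median-of-ratios scaling. Lman1, a cargo receptor for glycoproteins, was at 55.1 ± 0.825 TPM at 48h against 8.48 ± 1.39 in Naive (2.57), and Kdelr2, the receptor that returns luminal chaperones to the ER, at 113 ± 2.94 against 26.6 ± 2.89 (2.05). The coat subunit genes Copb2 and Arcn1 were higher by 1.78 and 1.58. At 72h vs 48h none of the glycosylation and translocation genes was called in either direction, where 2.81% of all genes were higher and 3.22% lower. Of the 24 vesicle traffic genes, 1 was called lower, Kdelr3. By adjusted p alone, 7 of 20 glycosylation, 10 of 22 translocation and 11 of 24 vesicle traffic genes passed in either direction. Among all genes 23.5% were higher and 19% lower by that measure. Whether these lists differ from the luminal chaperones in that step was not tested.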
